A study of Mus musculus with 12 samples.

Results

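The 10 genes described here, Rmst, Ikbip, Actr6, Cdk17, Mgat4c, Scyl2, Ano4, Nedd1, Elk3 and Ndufa12, lie near Rmst on chromosome 10, the mouse chromosome that also carries Grin3b. Their members on the array are the probe sets that the platform annotation gives a single one of these symbols, and there were 24 of them among 45037 probe sets that are not controls. The genes were chosen by the genotype differences of their probe sets, knockout against wild type, in these same samples, so every genotype value of the members is a description and carries no test. Age was not used to pick them, and the age difference averaged over genotypes was tested.

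Gene expression was read in total RNA from mouse brain, hindbrain and spinal cord on Affymetrix arrays, where a probe set is a group of short probes read out together. The 4 groups were wild type at postnatal day 0 (P0), NR3B knockout at P0, wild type at postnatal day 5 (P5) and NR3B knockout at P5, with 3 samples and 3 arrays in each. NR3B is the usual protein name of the glutamate receptor subunit encoded by Grin3b. The strain, the deleted part of the gene, the breeding of both genotypes and the sex of the animals are not given in the sources used here, and nothing in the labels says that the samples of a group came from separate animals, so errors and p-values reflect differences among these samples, which may be technical.

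As background, Rmst makes a long noncoding RNA, known from midbrain and hindbrain during development, that binds the transcription factor SOX2 and takes part in making neurons. The 9 other genes encode proteins of unrelated function, from chromatin and centrosome to mitochondria, and what links them here is their place on the chromosome.

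Median signals of the arrays ran from 605 to 734 in the deposited scaling, lowest in P0 knockout sample 3. The weight that limma estimates for an array is lower where it departs more from its group. It was lowest in P0 wild-type sample 2, at 0.362, and 0.529 to 1.58 in the others. As a check of the labelled tissue, markers were ranked among all probe sets, which is a rough guide since probes differ in brightness. The 6 neuronal markers lay at percentile 91.0 to 99.9, 5 of hindbrain and spinal cord at 41.1 to 93.2 and 5 of midbrain at 36.6 to 75.5. The 4 forebrain markers lay lower, at 16.7 to 80.2 with a median of 29.3, and 3 liver genes at 13.3 to 30.4. The only Grin3b probe set (1449899_at) read 155 to 353 in the wild-type samples and 31.4 to 96.9 in the knockout samples, without overlap at either age. The summed signal of 6 meningeal markers at P0 was 45269 to 73551 in wild-type samples and 101406 to 133211 in knockout samples, while at P5 the genotypes overlapped (124280 to 140982 and 124951 to 137582). That of 6 microglial markers at P5 was 26278 to 26733 in wild type and 31143 to 33866 in knockout, and that of 4 red blood cell markers at P0 was 997 to 1978 and 2728 to 4085. The summed signal of 5 endothelial markers at P0 was just apart, at 9765 to 11612 in wild type and 11621 to 13221 in knockout. Only 2 of these 5 were higher in knockout averaged over both ages. The summed signal of 5 hindbrain and spinal cord markers was lower in knockout at P5 without overlap, at 17836 to 18524 against 13900 to 17156. At P0 it overlapped (22510 to 43849 and 25343 to 35775). Taken singly, 2 of these 5 were higher in knockout averaged over both ages. The part of these differences in the members' values was not tested. In a tissue sample, fewer cells of a type and less RNA per cell cannot be told apart.

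The region also holds small RNAs, and their mature sequences are shown because they lie in or near Rmst or inside Cdk17, next to the long transcripts that were measured. They come from RefSeq (build GRCm38.p6), and capitals mark the seed, bases 2 to 8. The hairpin of miR-1251 lies inside the Rmst gene, that of miR-135a-2 lies outside it, and that of miR-1931 lies inside Cdk17. The 3 sequences shown have different seeds.
mmu-miR-1251-5p (inside Rmst; chr10:92137190-92137210, minus strand): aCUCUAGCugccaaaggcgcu
mmu-miR-135a-5p (outside Rmst; chr10:92072141-92072163, minus strand): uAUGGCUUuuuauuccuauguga
mmu-miR-1931 (inside Cdk17; chr10:93162879-93162900, plus strand): aUGCAAGGgcuggugcgauggc
No probe set is annotated to Mir1251 or Mir135a-2. A single probe set is annotated to Mir1931, and its values are given with the genes of the region. Which transcript of the locus that probe set reads is not known here.

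The promoters of members that differed in opposite directions are shown to let the sequences be compared: Ikbip and Actr6, whose signals were higher in knockout, and Ano4 and Mgat4c, whose signals were lower. RefSeq windows of GRCm38.p6 from 250 bases before to 50 bases after a gene start were at hand for 6 of the 10 members. Actr6 has 2 such windows and Mgat4c has 4, and the most upstream window of each is shown. Capitals mark the GC box (GGGCGG) and the ETS core (CCGGAAG, the kind of site that ETS factors such as the member Elk3 bind), each searched on both strands; these 2 motifs do not overlap in the windows shown.
Ikbip (higher in knockout; chr10:91082789-91083088, plus strand): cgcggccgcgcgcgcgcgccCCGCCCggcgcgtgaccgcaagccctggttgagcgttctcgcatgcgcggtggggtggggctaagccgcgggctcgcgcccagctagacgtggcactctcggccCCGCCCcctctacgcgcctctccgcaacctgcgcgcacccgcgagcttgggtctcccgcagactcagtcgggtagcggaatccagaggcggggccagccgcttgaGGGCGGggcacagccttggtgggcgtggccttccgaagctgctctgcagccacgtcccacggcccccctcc
Actr6 (higher in knockout; chr10:89732246-89732545, minus strand): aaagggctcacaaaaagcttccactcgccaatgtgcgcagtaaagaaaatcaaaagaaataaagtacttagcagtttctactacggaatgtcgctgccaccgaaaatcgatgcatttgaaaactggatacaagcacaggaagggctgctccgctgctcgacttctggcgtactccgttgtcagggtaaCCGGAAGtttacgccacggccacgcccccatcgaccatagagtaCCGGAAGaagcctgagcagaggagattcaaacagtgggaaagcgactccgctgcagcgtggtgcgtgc
Ano4 (lower in knockout; chr10:89257741-89258040, minus strand): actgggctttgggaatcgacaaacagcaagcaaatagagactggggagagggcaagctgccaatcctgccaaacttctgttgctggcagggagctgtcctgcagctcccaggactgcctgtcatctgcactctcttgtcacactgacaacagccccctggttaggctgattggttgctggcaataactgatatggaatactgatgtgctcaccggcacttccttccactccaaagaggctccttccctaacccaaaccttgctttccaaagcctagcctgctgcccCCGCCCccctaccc
Mgat4c (lower in knockout; chr10:101681237-101681536, plus strand): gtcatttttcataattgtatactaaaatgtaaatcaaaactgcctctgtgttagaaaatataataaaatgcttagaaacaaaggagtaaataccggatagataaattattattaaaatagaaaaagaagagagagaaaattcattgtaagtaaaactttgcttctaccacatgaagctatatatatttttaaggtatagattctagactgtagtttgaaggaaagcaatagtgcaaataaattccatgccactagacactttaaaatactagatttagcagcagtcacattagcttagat
The 4 windows have little in common. The Ikbip window holds 41 CpG dinucleotides and 3 GC boxes, and its GC content is 75.0%. That of Actr6 holds 20 CpG and 2 ETS cores but no GC box. That of Ano4 holds 3 CpG and 1 GC box, and that of Mgat4c holds 1 CpG and neither motif, at a GC content of 27.7%. The Mgat4c windows not shown hold 6 to 10 CpG at a GC content of 40.7% to 49.0%, and the most downstream of them holds a GC box. Over all 32851 promoter windows the median was 7 CpG, 35.7% held a GC box and 8.86% held an ETS core. A match is a description of the letters, and no match says only that they are absent from this window.

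**Figure D1:**
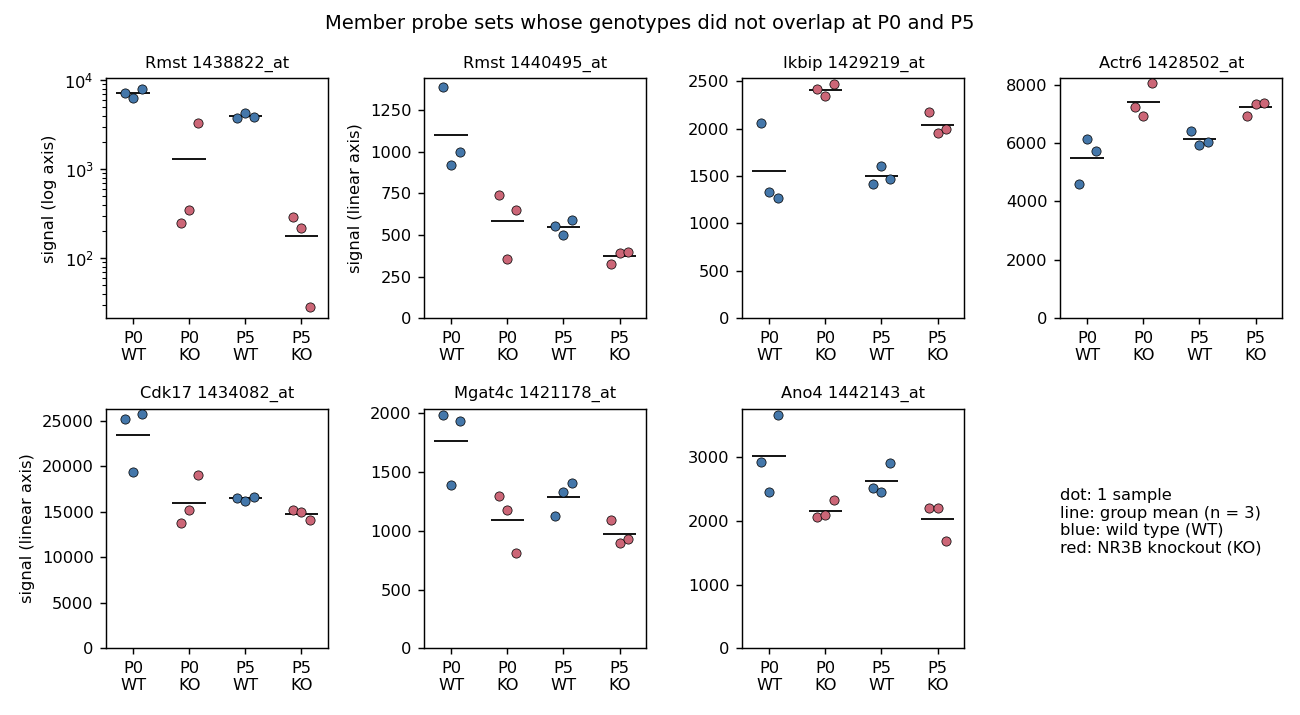
Signal (linear axis from 0, except the first panel, which has a log axis) of the 7 member probe sets whose genotypes did not overlap at P0 and at P5, 1 dot per sample and a line at the mean of 3. The Rmst probe set 1438822_at spans 28.1 to 7884, and in the other 6 panels the genotypes lie close to each other but apart.

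Of the 24 member probe sets, 7 kept all wild-type samples apart from all knockout samples of the same age, in the same direction at P0 and at P5. These 7 belong to 6 genes: 2 of Rmst and 1 each of Cdk17, Mgat4c and Ano4 were lower in knockout, and 1 each of Ikbip and Actr6 was higher. Over all probe sets 0.777% behaved in this way, 0.411% higher and 0.366% lower. At P0, whatever P5 showed, 10 members did not overlap (10.7% of all probe sets), 4 higher (5.40%) and 6 lower (5.32%) in knockout. At P5, whatever P0 showed, 13 did not overlap (11.7% of all probe sets), 5 higher (6.30%) and 8 lower (5.42%). The genes were chosen for these differences, so nothing is read from the shares. The median size of the average genotype difference was 0.37 on the log2 scale over the 24 members and 0.18 over all probe sets. Log2 differences here are on the log2(signal + 16) scale after quantile normalization, and their standard errors (SE) come from the fit over all probe sets.

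Rmst had the largest difference among the members. Probe set 1438822_at read 7139, 6227 and 7884 in P0 wild type and 251, 352 and 3316 in P0 knockout. Its P5 signals were 3733, 4262 and 3900 in wild type and 287, 218 and 28.1 in knockout. At each age no knockout sample reached the lowest wild-type sample, and a single knockout sample, sample 3 at P0, lay far above the others. On their arrays the wild-type signals ranked between the 79.7th and 89.5th percentile of all probe sets. The knockout signals ranked between the 3.85th and 34.1th, except P0 sample 3 at the 78.6th. Knockout minus wild type, the log2 difference at P0 was -3.37 (SE 0.80), and the one at P5 was -4.74 (SE 0.80). Without P0 knockout sample 3 the P0 difference was -4.55, and it was -3.85 at P5 without knockout sample 3 of that age. A fold of signals this dim is uncertain in size. The summed signal of 5 hindbrain and spinal cord markers at P5 was also lower in knockout, although 2 of them were higher averaged over both ages. That of 5 midbrain markers was not lower. It overlapped at P5, at 6647 to 7444 in wild type and 7196 to 8007 in knockout, and at P0 (3240 to 6603 and 4260 to 5553). Averaged over both ages, 4 of these 5 were higher in knockout. The part of either sum in the Rmst difference was not tested.

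The groups order from P0 wild type (7083 ± 830, mean ± SD of the signal, n = 3) through P5 wild type (3965 ± 270) and P0 knockout (1306 ± 1741) to P5 knockout (178 ± 134). P0 and P5 wild type did not overlap, nor did P5 wild type and P0 knockout. P0 and P5 knockout, neighbours in this order, did overlap.

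The other Rmst probe set had a much smaller difference in the same direction. Probe set 1440495_at read 1387, 918 and 1000 in P0 wild type against 738, 358 and 647 in knockout. Its P5 signals were 552, 498 and 592 against 323, 391 and 400. The genotypes did not overlap at either age, and the differences were -0.90 (SE 0.30) and -0.49 (SE 0.30); without P0 knockout sample 2 the P0 value was -0.55. A further probe set (1437418_at) carries the symbol Gm3515, which RefSeq lists as a synonym of Rmst, and is not counted among the members. It read 2474, 3861 and 1965 in P0 wild type and 1377, 1799 and 2690 in P0 knockout, which overlap. Its P5 signals were 3358, 3222 and 3081 against 1191, 1087 and 1129, a clear gap and a difference of -1.47 (SE 0.27). The 3 probe sets therefore gave the same direction and very unequal sizes, and where each lies in the transcript is not known here.

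On the normalized log2 scale, P0 knockout sample 3 was the P0 knockout sample nearest to wild type in both Rmst probe sets, in Cdk17 and in Ano4. In Rmst 1440495_at this holds by a small margin (9.57 against 9.48 for sample 1), and in deposited signal sample 1 was nearer, at 738 against 647. For Rmst 1438822_at it stood 22.2% of the way from the wild-type mean to the mean of the other knockout samples on the log2 scale, for 1440495_at 45.9%, for Ano4 48.7% and for Cdk17 60.1%. In Ikbip, Actr6 and Mgat4c it was the farthest from wild type of the 3, at 120%, 136% and 175% of the way. Its intermediate Rmst signal was thus not shared by all members.

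Members that act on transcription and chromatin came out differently. Actr6, an actin-related subunit of the complex that places the histone variant H2A.Z, was higher in knockout. Its probe set 1428502_at read 4597, 6150 and 5717 in P0 wild type and 7235, 6930 and 8043 in P0 knockout. Its P5 signals were 6408, 5930 and 6042 against 6928, 7342 and 7390. The genotypes did not overlap, and the differences of 0.46 (SE 0.13) and 0.24 (SE 0.13) are small.

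Elk3, an ETS factor that works with serum response factor, had 4 probe sets and no common direction. The brightest, 1448797_at, read 1308, 1174 and 985 in P0 wild type against 1506, 1262 and 1236 in P0 knockout, and 1425, 1865 and 1938 against 2009, 1555 and 1851 at P5. These signals overlap at both ages, although after normalization the P0 genotypes were just apart, at 0.28 (SE 0.18) higher in knockout. Probe set 1435143_at was lower in knockout at P0 by a log2 difference of -0.41 (SE 0.24) and 1417662_at at P5 by -0.28 (SE 0.24), each without overlap at that age alone. Probe set 1445886_at was dim, at the 16.8th percentile, and overlapped at both ages.

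Among the kinases, Cdk17, a PCTAIRE-type cyclin-dependent kinase of neurons, was lower in knockout in its bright probe set. Probe set 1434082_at read 25195, 19384 and 25740 in P0 wild type and 13792, 15241 and 19009 in P0 knockout. At P5 it read 16568, 16245 and 16597 against 15225, 14944 and 14147. The gap was narrow between P0 wild-type sample 2 and P0 knockout sample 3, and the differences were -0.63 (SE 0.15) and -0.18 (SE 0.15). The dimmer probe set 1446272_at overlapped at both ages, at 0.19 and 0.03 (SE 0.28 each).

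Scyl2, a pseudokinase of clathrin-coated vesicles, had 3 of 4 probe sets that were higher in knockout without overlap at a single age, and 0 at both. The brightest, 1436314_at, read 1195, 1175 and 1153 in P5 wild type and 1603, 4577 and 3484 in P5 knockout. The wild-type samples were close together and the knockout samples wide apart, with a difference of 1.34 (SE 0.34). At P0 it overlapped (1426, 1862 and 2109 against 3313, 2176 and 1393). Probe set 1440269_at read 102, 354 and 271 in P5 wild type and 543, 579 and 541 in P5 knockout, a difference of 1.33 (SE 0.45). At P0 it read 349, 170 and 270 against 688, 681 and 266, so that P0 knockout sample 3 alone lay among the wild-type samples. Probe set 1436313_at did not overlap at P0, at 0.80 (SE 0.27), and overlapped at P5, while 1446528_at, at the 23.6th percentile, was at 0.09 and -0.57 (SE 0.40 each).

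**Figure D2:**
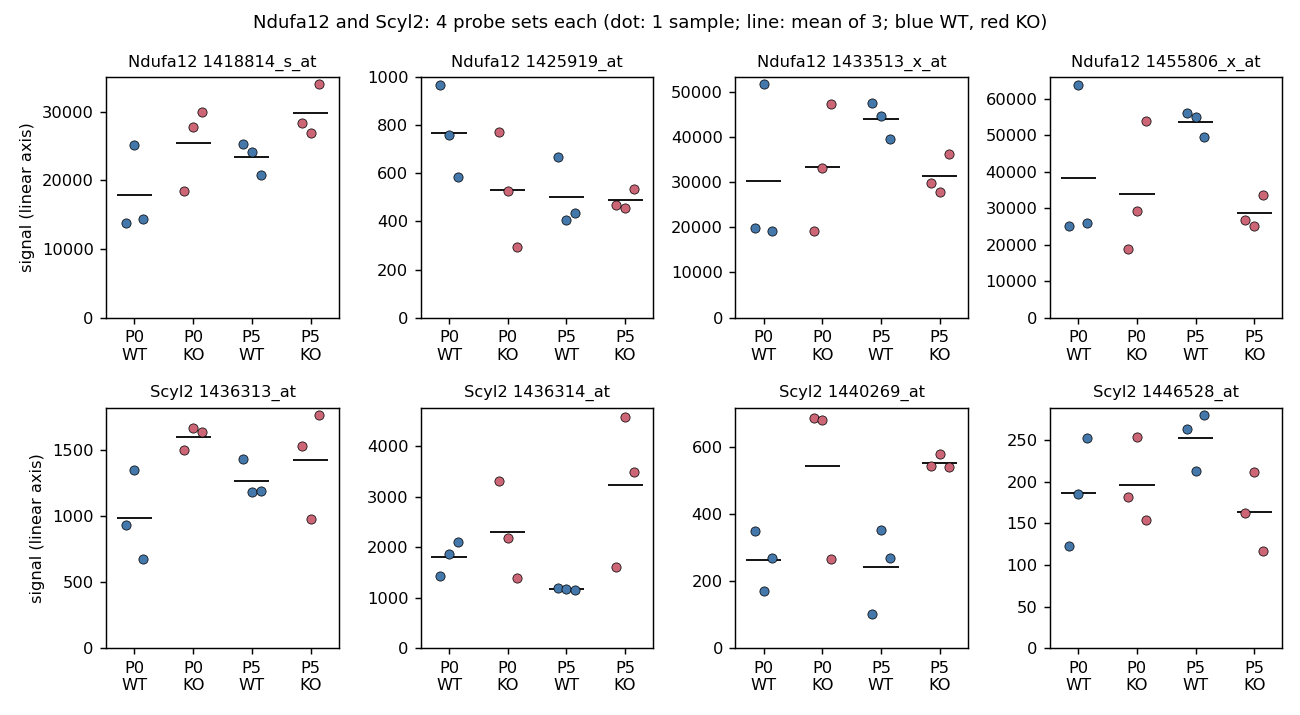
Signal on a linear axis from 0 of the 4 Ndufa12 probe sets (upper row) and the 4 Scyl2 probe sets (lower row), 1 dot per sample and a line at the mean of 3. At P5, Ndufa12 1418814_s_at lies higher in knockout while 1433513_x_at and 1455806_x_at lie lower.

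Ndufa12, an accessory subunit of respiratory complex I, showed opposite directions between its probe sets. At P5, 1455806_x_at read 56195, 55053 and 49612 in wild type and 26881, 25171 and 33741 in knockout, a difference of -0.93 (SE 0.30). Probe set 1433513_x_at read 47507, 44680 and 39450 against 29838, 27781 and 36250, at -0.51 (SE 0.30). In the same samples 1418814_s_at read 25290, 24169 and 20794 against 28378, 26848 and 34048, at 0.32 (SE 0.20). All 3 kept the genotypes apart at P5, with the first 2 lower and the last higher in knockout. The suffixes _x and _s mark probe sets whose probes may match more than a single transcript.

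At P0 all 4 Ndufa12 probe sets overlapped. In 1455806_x_at, wild-type samples 1 and 3 read 25004 and 25833 and sample 2 read 63713, while the knockout samples read 18823, 29311 and 53811. The 2 high values belong to P0 wild-type sample 2 and P0 knockout sample 3, which were also the highest in 1433513_x_at, at 51636 and 47392. Probe set 1425919_at was much dimmer, at the 45.9th percentile, and was at -0.56 (SE 0.32) at P0 and 0.03 (SE 0.32) at P5.

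Nedd1, which brings the gamma-tubulin ring complex to the centrosome, overlapped between the genotypes in both probe sets at both ages. Its differences ran from -0.15 to -0.01 (SE 0.22 each). The values are given with the age comparison.

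Among the membrane proteins, Ikbip, a protein of the endoplasmic reticulum that interacts with the kinase IKK-beta, was higher in knockout in a single probe set of 3. Probe set 1429219_at read 2063, 1330 and 1269 in P0 wild type and 2415, 2348 and 2469 in P0 knockout, and 1417, 1607 and 1464 against 2175, 1950 and 1995 at P5. The genotypes did not overlap, at 0.71 (SE 0.17) and 0.48 (SE 0.17). The wild-type sample nearest to knockout was P0 sample 1; without it the P0 difference was 0.91. Probe set 1429065_at overlapped at both ages, at 0.55 (SE 0.21) and -0.06 (SE 0.21), and so did the dim 1447202_at, at -0.09 and -0.87 (SE 0.39 each).

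Ano4, a member of the anoctamin family of membrane proteins, was lower in knockout. Its probe set 1442143_at read 2913, 2453 and 3658 in P0 wild type and 2062, 2088 and 2329 in P0 knockout. At P5 it read 2507, 2446 and 2910 against 2201, 2207 and 1689. The genotypes lay apart by less than the range within a group, at -0.41 (SE 0.17) and -0.35 (SE 0.17).

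Mgat4c belongs by sequence to a family of enzymes that add N-acetylglucosamine branches to glycans, and it lies farthest from Rmst of the 10 members. Probe set 1421178_at read 1979, 1385 and 1931 in P0 wild type and 1292, 1173 and 814 in P0 knockout, and 1121, 1330 and 1406 against 1090, 896 and 932 at P5. The gap at P5 is narrow, between 1121 and 1090. The differences were -0.62 (SE 0.19) and -0.36 (SE 0.19).

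**Figure D3:**
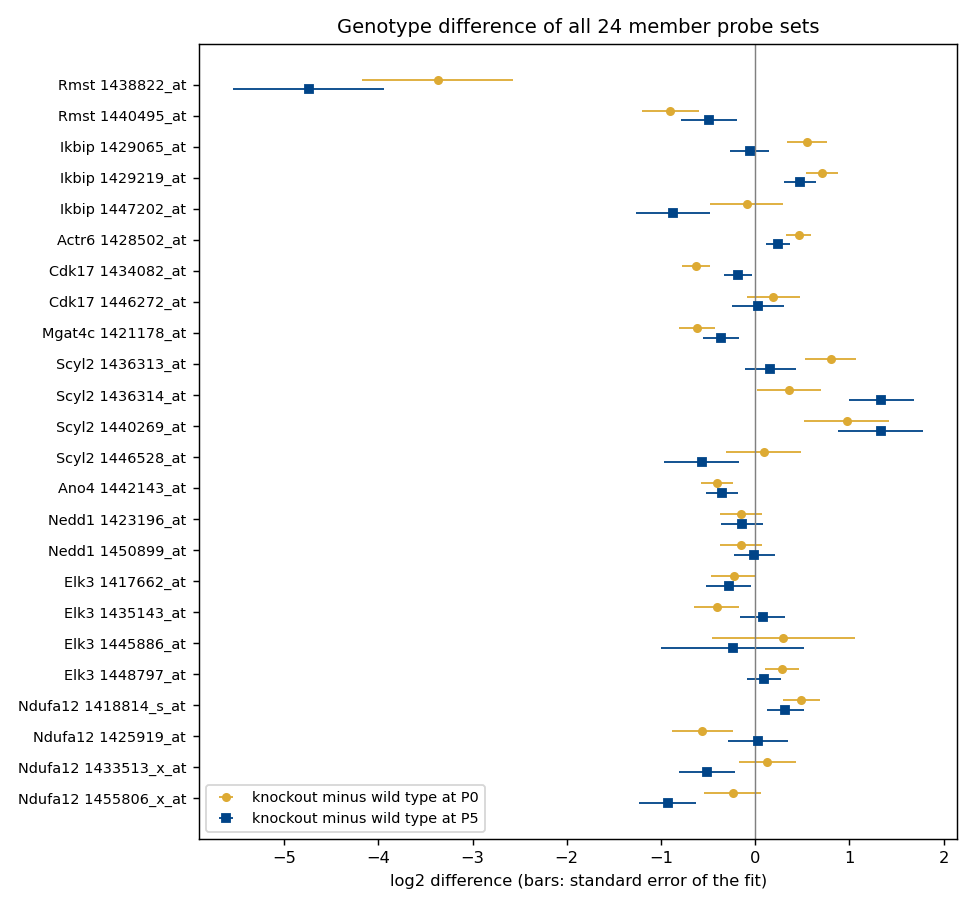
Log2 difference, knockout minus wild type, of all 24 member probe sets at P0 (circles) and P5 (squares) with the standard error of the fit. Rmst 1438822_at stands at -3.37 and -4.74, and the others lie between -0.93 and 1.34.

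Along the chromosome the members lie in a span of 63 measured genes, from Ano4, the first, to Mgat4c, the last, with each gene represented by its brightest probe set. Between Grin3b and this span lie 151 measured genes. In the span, 9 of 63 genes (14.3%) did not overlap between the genotypes at both ages in the same direction, of which 6 are members chosen for that. Of the 53 other genes in the span, 3 did so (5.66%). On the rest of the chromosome 12 of 797 genes did (1.51%), and over all 18032 measured genes placed in RefSeq 0.832% did. Counted without P0 wild-type samples 1 and 2, the share on the rest of the chromosome was 5.52%, against 15.9% in the span. Such shares can only stay or rise when samples are left out.

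The 9 genes were not spread evenly over the span. They are the genes at places 1 (Ano4), 5 (Actr6), 6 (Uhrf1bp1l), 9 (Ikbip), 12 (Rmst), 14 (Cfap54), 15 (Cdk17) and 16 (Mir1931), followed by Mgat4c at place 63. In runs of 50 measured genes along the chromosome, the run that starts with Ano4 held 8 such genes, 3 higher and 5 lower. The other full runs held 0 to 2. The run that ends with Tmem259 held 2, Grin3b and Tmem259 itself, at an average difference of -1.93 (SE 0.35) and -3.69 (SE 0.27). No chance test was made for these counts, because the region was proposed with its values known.

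Of the other genes in the span, the probe set annotated to Mir1931 (1446130_at), which lies inside Cdk17, had the largest difference. It read 467, 724 and 972 in P0 wild type and 229, 37.7 and 289 in P0 knockout. At P5 it read 830, 742 and 620 against 131, 358 and 137. The genotypes did not overlap, and the differences were -2.13 (SE 0.60) and -1.82 (SE 0.60). These are larger than in the bright Cdk17 probe set, but the set is dim, at the 36.4th percentile. Uhrf1bp1l, at -0.34 and -0.18, and Cfap54, a protein of cilia, at 0.29 and 0.46, were named after their values were seen. Apaf1, the neighbour of Ikbip and a core factor of apoptosis, overlapped, at an average of -0.27.

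**Figure D4:**
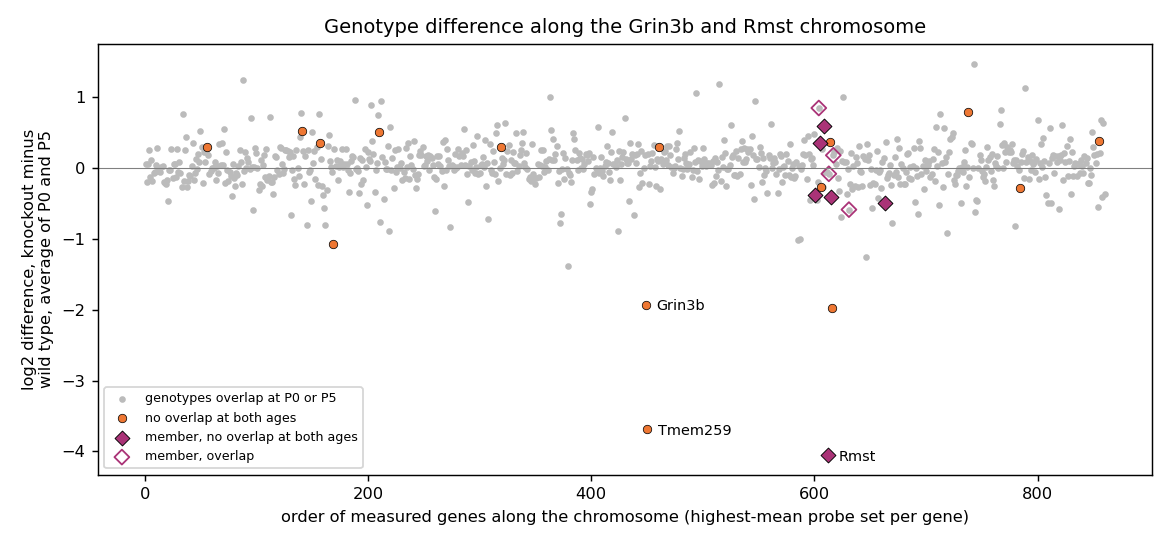
Average log2 difference, knockout minus wild type, of the 860 measured genes of chromosome 10 in their order along it, with the brightest probe set of each gene. Orange dots and filled diamonds mark genes whose genotypes did not overlap at either age; Grin3b and Tmem259 stand apart at -1.93 and -3.69, and Rmst at -4.05 in the run of 50 genes with 8 marked.

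By their levels in the 12 samples, the genes most like Rmst 1438822_at were described by Pearson's r over 23204 probe sets at or above the 40th percentile, with the 12 samples in common. The highest r was 0.87, for the member Ano4. It was followed by A330102I10Rik at 0.86, Gm3515 at 0.84, the zinc finger gene Zfp420 at 0.82 and Arhgap44, a GTPase-activating protein, at 0.81. Of the 5, Ano4 lies on chromosome 10, Gm3515 is a synonym of Rmst, and the other 3 lie on chromosomes 13, 7 and 11. Rmst and Ano4 were both chosen by their genotype differences in these same samples, so nothing is read from their r.

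Age was the comparison that had no part in the choice of the genes. Averaged over genotypes, 4 of 24 member probe sets changed from P0 to P5 (16.7%), against 11.7% of all probe sets (limma, Benjamini-Hochberg adjusted p under 0.05 over 45037 probe sets). Higher at P5 were 3, in Nedd1, Ikbip and Elk3, against 5.85% of all probe sets, and lower was 1, in Rmst, against 5.87%. The other 20 did not pass, with differences from -1.51 to 0.41. The median size of the age difference was 0.32 for the members and 0.27 for all probe sets.

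Nedd1 had the smallest p. Probe set 1450899_at read 1528, 1027 and 1350 in wild type at P0, and 876, 1115 and 1410 in knockout at P0. Its P5 signals were 1854, 1897 and 2295 in wild type and 2102, 1945 and 1830 in knockout. All 6 P5 samples lay above all 6 P0 samples, and the rise was 0.70 (SE 0.15; limma adjusted p = 0.00755), or 1.63-fold. It was 0.64 in wild type and 0.77 in knockout. The second probe set, 1423196_at, was at 0.41 (SE 0.15; limma adjusted p = 0.103). Of the partners of Nedd1 in gamma-tubulin and spindle assembly, 4 of 24 probe sets rose (5.85% of all) and 0 fell, in Tubg1 at 0.38, Haus1 at 0.57 and Haus6 at 0.96 and 0.57. The summed signal of 3 markers of dividing cells was 7136 to 9545 in the P0 samples and 30461 to 36663 in the P5 samples, and its part in the rise of Nedd1 was not tested.

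Ikbip rose in probe set 1429065_at, which read 930, 1443 and 939 in P0 wild type and 1341, 1631 and 1653 in P0 knockout. At P5 it read 1956, 2175 and 2145 in wild type and 1981, 1802 and 2148 in knockout. All P5 samples lay above all P0 samples in deposited signal, and the rise was 0.63 (SE 0.15; limma adjusted p = 0.0128), at 0.93 in wild type and 0.33 in knockout. The probe set of Ikbip that kept the genotypes apart, 1429219_at, did not pass for age, at -0.16 (SE 0.12; limma adjusted p = 0.48).

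Elk3 rose in its brightest probe set, 1448797_at, by 0.48 (SE 0.13; limma adjusted p = 0.0235), and the call was lost (adjusted p 0.0561 to 0.0683) on leaving out wild-type sample 3 of P0, wild-type sample 2 or 3 of P5, or knockout sample 1 or 3 of P5. Its other 3 probe sets did not pass, at -0.41 to 0.10. In the list around Elk3 and serum response factor, 1 of 11 probe sets rose (5.85% of all), 1 of the 4 of Elk4 at 0.49, and 0 fell. Endothelial markers, measured because Elk3 is known from blood vessels, had a summed signal of 9765 to 13221 at P0 and 15600 to 18200 at P5. Of these 5 markers, 2 passed as higher at P5, and the part of the sum in the rise of Elk3 was not tested.

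Rmst was lower at P5 in both probe sets, and 1 of them passed. Probe set 1440495_at fell by 0.77 (SE 0.21; limma adjusted p = 0.0299), or 1.70-fold, with P0 wild type at 1102 ± 251 and P5 wild type at 547 ± 47.0 (signal, mean ± SD, n = 3 each). The call was lost (adjusted p 0.0522 to 0.0768) on leaving out wild-type sample 1 or knockout sample 1 or 3 of P0, wild-type sample 1 or 2 of P5, or each of the 3 knockout samples of P5. The bright 1438822_at was at -1.51 (SE 0.57; limma adjusted p = 0.104), at -0.83 in wild type and -2.19 in knockout. With the wild-type samples alone in the fit it passed, at -0.83 (limma adjusted p = 0.0142), and so it did without P0 knockout sample 1, at -1.87 (adjusted p = 0.0459). The summed signal of 5 markers of hindbrain and spinal cord was 22510 to 43849 at P0 and 13900 to 18524 at P5, with 2 passing as lower at P5. At P5 the sum was lower in knockout without overlap. That of 5 midbrain markers was 3240 to 6603 at P0 and 6647 to 8007 at P5, with the genotypes overlapping at each age. Only 2 of these 5 passed as higher at P5, while En1, Foxa2 and Lmx1a were at -0.18, -0.25 and -0.08. The part of either sum in the Rmst values was not tested.

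**Figure D5:**
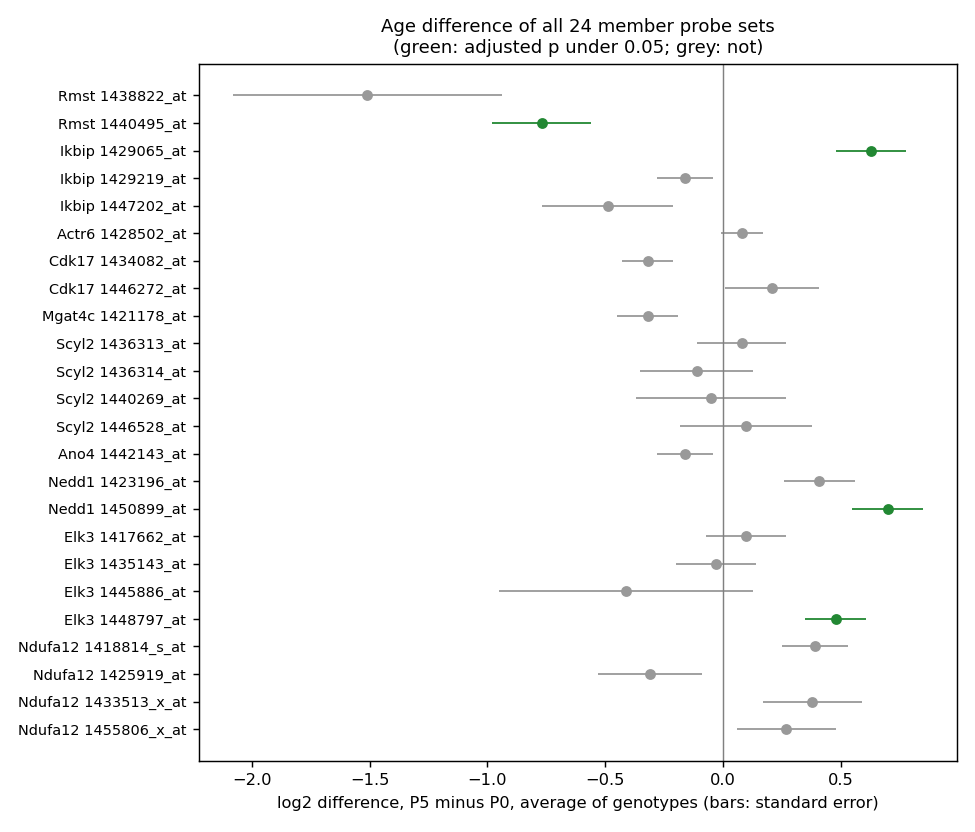
Log2 difference, P5 minus P0 averaged over genotypes, of all 24 member probe sets with the standard error; green marks an adjusted p under 0.05 over all probe sets. Nedd1 1450899_at at 0.70, Ikbip 1429065_at at 0.63 and Elk3 1448797_at at 0.48 were higher at P5, and Rmst 1440495_at at -0.77 was lower.

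Of the remaining members none passed for age. Cdk17 1434082_at came nearest, at -0.32 (SE 0.11; limma adjusted p = 0.0675), with -0.55 in wild type and -0.10 in knockout. Ndufa12 1418814_s_at was at 0.39 (SE 0.14; adjusted p = 0.0908) and Mgat4c at -0.32 (SE 0.13; adjusted p = 0.141). Ano4 at -0.16 and Actr6 at 0.08 were near 0, as were the 4 Scyl2 probe sets, from -0.11 to 0.10.

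Genes listed around the members, called partners here, were tested in both comparisons. They are 78 measured genes with 149 probe sets in 9 lists, and their lists were not drawn from the region. Some work with a member, and others only share its family or name. For the genotype average 0 of 149 passed in limma, against 0.0111% of all probe sets (0.00222% higher and 0.00888% lower in knockout), with 10 at an unadjusted p under 0.05. The smallest p belonged to Cdk14, a relative of Cdk17, at -0.63 (SE 0.14; limma adjusted p = 0.539). The immediate early gene Fos followed at 0.61 (SE 0.15; adjusted p = 0.61). Without P0 wild-type sample 2, Fos alone of the 149 passed (limma adjusted p = 0.0384). On simulated data the fit recovered 40% of 2-fold and 68% of 4-fold genotype changes, so changes in the partners could be missed. For age, 16 of 149 rose and 7 fell, against 5.85% and 5.87% of all probe sets, the shares to read all counts of these lists against. In the H2A.Z pathway around Actr6, 5 of 16 probe sets rose (5.85% of all), all from 2 of its 9 measured genes: 3 of Actl6a at 0.79, 0.44 and 1.23 and 2 of H2az1, the histone variant itself, at 0.96 and 0.64.

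In the list of other Mgat genes, 3 of 12 probe sets fell (5.87% of all) and 0 rose. They were 1 each of Mgat3, Mgat4b and Mgat5, by 0.40, 0.38 and 0.52. Of the other anoctamins 2 of 8 fell (5.87% of all), 1 of 2 probe sets of Ano6 by 0.59 and Ano8 by 0.69. In the list around Cdk17, 3 of 20 rose (5.85% of all): Cdk18 at 1.71, a very dim probe set of Cdk5 at 1.66, whose 2 brighter ones were at -0.08 and 0.05, and 1 of 7 of Ccny at 0.27. Of the clathrin and Scyl list 2 of 17 fell (5.87% of all), 1 of 3 probe sets of Cltb by 0.84 and 1 of 3 of Ap2b1 by 0.30. Of the Rmst partners 3 of 16 rose (5.85% of all), in Neurog2, which drives neuron formation, at 1.55, Otx2, a transcription factor of forebrain and midbrain, at 0.88 and 1 of 4 probe sets of Hnrnpa2b1, an RNA-binding protein, at 0.32. The other 3 of Hnrnpa2b1 did not pass and were at -0.33, -0.26 and -0.05. Of the complex I list 0 of 25 passed, with a median of 0.32. Without P0 wild-type sample 2 the counts over all lists were 37 higher and 14 lower, and they were 8 to 10 higher on leaving out wild-type sample 1 or 3 or knockout sample 1 of P0, each wild-type sample of P5, or knockout sample 2 or 3 of P5. The count lower was 4 on leaving out knockout sample 2 of P0, or wild-type sample 1 or 2 or knockout sample 1 of P5.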

How the data were processed

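For 12 arrays the authors deposited a linear intensity per probe set, made with software that the sources used here do not name. Each array's deposited signals had a mean of 2500.01 once the highest and lowest 2% were left out. Of 45101 probe sets, 64 controls were left out. Genes were named through the platform annotation, and their order along the chromosome was taken from RefSeq for assembly GRCm38.p6, which was used for names and order. All 10 members were found.

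After a log2(signal + 16) transform, array medians spread over 0.272, above a limit of 0.1, so arrays were quantile-normalized. In R 4.3.3, limma 3.58.1 estimated a mean for each group from the 12 samples, using a prior that depends on intensity (8 residual and a median of 6.22 prior degrees of freedom) and no filter on dim probe sets; 20 of the 24 members lay at or above the 40th percentile. P-values were adjusted with Benjamini-Hochberg over all 45037 probe sets, with 0.05 as the threshold. The fit was tested on simulated data with 200 changed probe sets. It recovered 49% of 2-fold and 73% of 4-fold age changes, and 40% and 68% of such genotype changes. The changed probe sets were drawn at random, whatever their brightness. In the data 5278 probe sets passed for age, which sets another cutoff, so the simulated age shares do not carry over to them. The number of arrays, 3 per group, limits the precision.

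The members and lists were chosen with earlier results of these data known. Signals in every sample are given for member probe sets without overlap at both ages and for the brightest of each other member; other genes of the span are named at an average difference of at least 0.5 without overlap, partners by smallest p. Alternatives were other pseudocounts, scalings, filters, priors, array weights, a replicate block and leaving out samples.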

Additional observations from a re-analysis of the deposited data

How the results depend on the processing

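The 21 genotype differences of the 7 member probe sets without overlap were recomputed 455 times under the alternatives; 0 changed sign, and 450 moved by less than the SD within groups. The 5 that moved more were P0 values without P0 wild-type samples 1 and 2 (Ano4 -0.69, Cdk17 -0.83, Ikbip 0.99), without P0 wild-type sample 1 (Ikbip 0.91) and without P0 knockout sample 2 (Rmst 1440495_at -0.55). Leaving out samples cannot change the sign where the genotypes do not overlap. The filter, the replicate block, the single prior and leaving out samples of the other age cannot move the difference at an age. Stability is therefore not read from these tallies. Requiring an average difference of at least 0.5 left 3 of the 7 member probe sets, 4.76% of span genes and 0.753% of other genes on the chromosome. With every probe set counted, 8.84% of the span did not overlap. Without P0 wild-type samples 1 and 2, 5.52% of genes outside the span did not overlap. Leaving out each sample in turn gave 7 to 9 member probe sets without overlap. Such counts and shares can only stay or rise when samples are left out.

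For age, the count of members higher at P5 was 5 with array weights and 0 with wild-type or knockout samples alone, a fit with fewer samples, and 2 to 5 when leaving out each sample in turn. The count lower was 2 with the 40th percentile filter, 2 with array weights, 0 with knockout samples alone, and 0 to 2 when leaving out each sample. Partner probe sets higher at P5 numbered 25 with array weights, 8 with a single prior and 8 to 37 when leaving out each sample. Those lower numbered 13, 4 and 4 to 14 in the same order, and those higher in knockout 0 to 1. With the replicate block the members' counts were 3 higher and 1 lower and the partners' 15 and 9. The labels do not say what a shared sample number stands for. Deviations of same-numbered samples correlated at -0.0169 to 0.134 across all probe sets, with only P0 pair 1 above 0.1, so the numbers were not used as pairs.

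Rmst in knockout is dim, so the size of its fold depends on the pseudocount: the P5 difference was -4.99 with 1 and -4.24 with 64. The labels give neither strain nor deletion.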
